A study of Rattus norvegicus with 4 samples.

Results

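Oxidative phosphorylation subunit genes were followed in colon mucosa of inbred F344 rats with colitis induced by dextran sodium sulphate (DSS), which injures the colonic epithelium. Members were the array probes whose gene name starts with Nduf, Uqcr, Cox4 to Cox8 or Atp5, or is Sdha, Sdhb, Sdhc, Sdhd or Cyc1. They were 82 of 41012 probes and stood for 72 of the 15544 named genes. By complex they held 31 genes of complex I, 4 of complex II, 6 of complex III, 15 of complex IV and 13 of complex V, together 69 subunit genes. The other 3 names, Ndufaf1, Emc8 (Cox4nb on the array) and Dmac2l (Atp5s on the array), share a prefix without being subunits and were kept apart. Subunits encoded in mitochondrial DNA carry other names and were not members.

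The plant polyphenol resveratrol was given to 8 rats with their feed for 20 days, at 1 mg per kg a day, while control rats ate standard chow. Both groups then drank 5% DSS for 5 days, and their age and sex are not given in the sources used here. Each of 4 two-colour arrays compared RNA of 2 resveratrol rats, labelled with Cy5, with a control pool labelled with Cy3, and dyes were not exchanged. The arrays lay on 2 slides, replicates 1 and 2 on slide 1 and replicates 3 and 4 on slide 2. Values are log2 ratios of Cy5 over Cy3, so that positive values mean more transcript in the resveratrol sample. The pool counts as 1 control sample, and its own spread is not part of any error given here.

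Oxidative phosphorylation takes place in the inner membrane of mitochondria. Complexes I and II pass electrons from NADH and succinate to ubiquinone, complex III passes them on to cytochrome c, and complex IV, cytochrome c oxidase, hands them to oxygen. Complexes I, III and IV pump protons, and complex V, ATP synthase, makes ATP as the protons flow back. Colonocytes draw much of their energy from the mitochondrial oxidation of butyrate made by the gut flora, and the absorptive cells at the top of the crypt are rich in mitochondria. In RNA from whole mucosa, a change in the share of such cells and a change in the RNA per cell cannot be told apart.

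Many of these genes have short CpG-rich promoters in which binding sequences of the regulators NRF1, GABP and YY1 are known to recur. They were looked for in the RefSeq promoters of assembly GRCr8, 250 bases before to 50 after each gene's start, which the table gave for 59 of the 69 subunit genes. The letters searched on both strands were GCATGCGC for NRF1, CCGGAAGT for the ETS site that GABP binds and AAGATGGC for YY1, and in the runs shown different motifs do not overlap, while the NRF1 letters overlap their own reverse complement. At least 1 of them lay in 21 of the 59 promoters (35.6%), against 9.42% of 27457 promoters of all genes. The NRF1 letters were in 7 (11.9%, against 2.66% of all), the ETS letters in 6 (10.2%, against 4.01%) and the YY1 letters in 13 (22.0%, against 3.44%). A subunit promoter held a median of 20 CpG and a promoter of all genes 7. The bases upstream of 4 genes are printed because they show these letters, in capitals, in 3 genes that were higher with resveratrol and in 1, Ndufa11, that was not called.
Atp5me (chr14:1464610-1464859, + strand): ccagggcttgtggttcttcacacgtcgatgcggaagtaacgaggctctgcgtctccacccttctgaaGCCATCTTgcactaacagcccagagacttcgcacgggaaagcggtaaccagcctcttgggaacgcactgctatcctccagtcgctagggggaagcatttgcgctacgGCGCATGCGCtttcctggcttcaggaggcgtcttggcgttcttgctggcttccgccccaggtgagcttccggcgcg
Atp5mc2 (chr7:135678219-135678468, - strand): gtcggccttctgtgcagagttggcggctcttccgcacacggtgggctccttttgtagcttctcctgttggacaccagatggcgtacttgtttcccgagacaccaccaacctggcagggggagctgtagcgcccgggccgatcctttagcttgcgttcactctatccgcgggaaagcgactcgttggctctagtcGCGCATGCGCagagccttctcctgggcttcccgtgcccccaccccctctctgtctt
Ndufs1 (chr9:72073606-72073855, - strand): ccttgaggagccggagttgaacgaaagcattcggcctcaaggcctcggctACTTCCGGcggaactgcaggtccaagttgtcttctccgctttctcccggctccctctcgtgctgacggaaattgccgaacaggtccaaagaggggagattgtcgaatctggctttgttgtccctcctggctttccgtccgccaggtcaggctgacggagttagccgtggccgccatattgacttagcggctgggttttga
Ndufa11 (chr9:1637364-1637613, + strand): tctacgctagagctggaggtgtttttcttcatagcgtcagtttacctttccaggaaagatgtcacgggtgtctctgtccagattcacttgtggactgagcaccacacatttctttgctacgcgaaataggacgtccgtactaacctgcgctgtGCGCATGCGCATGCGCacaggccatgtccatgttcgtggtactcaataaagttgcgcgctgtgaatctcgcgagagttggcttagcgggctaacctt
Atp5me carries both the NRF1 and the YY1 letters, Atp5mc2 and Ndufa11 the NRF1 letters and Ndufs1 the ETS letters. Among all promoters given, 9 of 20 promoters of higher genes and 10 of 33 of genes that were tested and not called held at least 1 of the motifs. A match is a description of the sequence and no evidence of binding.

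Of the 69 subunit genes 63 could be tested. With resveratrol 23 of the 63 were higher than in the control pool, 0 were lower and 40 were not called at an adjusted p of 0.05 (limma, Benjamini-Hochberg over 18869 probes). Of 9433 named genes tested on these arrays 25.7% were higher and 19.6% lower, so the share of higher subunit genes was above the background and the share of lower ones below it. The mean log2 ratio was above 0 for 51 subunit genes and below 0 for 12, with a median of 0.31, against 0.02 for all named genes. Counted by probe, 26 of the 70 member probes tested were higher and 0 lower, against 24.4% and 22.7% of all probes tested. Of the 54 subunit genes with values on all 4 arrays, 24 (44.4%) were above 0 on every array, close to the 40.3% of all named genes. None of the 54 was below 0 on every array, against 22.5% of all named genes.

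The height of the ratios varied between arrays. The median over the subunit genes was 0.37 on replicate 1, 0.53 on replicate 2, 0.14 on replicate 3 and 0.21 on replicate 4 (SD 0.17), while the median over all named genes lay between -0.01 and 0.09. Both arrays of slide 1 were thus above both arrays of slide 2 in this setting. The order turned when outlier spots were kept in the loess curve: the medians over the 70 member probes tested, 0.37, 0.52, 0.14 and 0.22 without those spots, became 0.50, 0.65, 1.14 and 0.71. Member spots that carry no outlier mark themselves moved by a median of 1.09 on replicate 3 and 0.67 on replicate 4, against 0.16 and 0.13 on slide 1. Replicate 2 was the highest array for 34 of the 54 genes (63.0%), against 28.9% of all named genes, and replicate 3 the lowest for 26 (48.1%), against 40.8%. On slide 1 alone 37 of 62 subunit genes were higher and 2 lower, with 35.2% of all named genes higher. Slide 2 alone gave 2 higher of 57, against 5.46%. The median over genes was 0.42 on slide 1 and 0.18 on slide 2.

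Complex I takes electrons from NADH, and 11 of its 30 genes tested were higher, 0 were lower and 19 were not called, with a median of 0.31. Ndufs3, a core subunit of the arm that reaches into the matrix, had log2 ratios of 1.73, 1.32 and 1.04 on replicates 1 to 3, and its spot on replicate 4 was marked as an outlier. All 3 arrays lay above 1, and the mean of 1.36 ± 0.16 (moderated SE, adjusted p = 0.00587), a 2.57-fold ratio, was the highest of all members. The core subunit Ndufs1, which holds iron-sulphur clusters of the NADH-oxidising module, had 0.71, 0.63, 0.61 and 0.87. Its arrays differed little, and the mean was 0.70 ± 0.09 (adjusted p = 0.00496).

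Accessory subunits surround the catalytic core of complex I and several are needed for its assembly. The matrix-arm subunit Ndufa2 had 0.98, 0.73, 0.58 and 0.59, and its mean was 0.72 ± 0.10 (adjusted p = 0.0059). A second probe of Ndufa2, which overlaps the first, gave a mean of 0.58 (adjusted p = 0.00899). Ndufc2, a subunit of the membrane arm, was 0.96 on replicate 1 and 0.80 on replicate 2 by its brighter probe, with both spots of slide 2 marked as outliers, and the mean over those arrays was 0.88 ± 0.14 (adjusted p = 0.0145). Its second probe was measured on all arrays at 0.48, 0.47, 0.48 and 0.51, with Cy3 well above background on 2 arrays only, and its mean of 0.49 ± 0.08 (adjusted p = 0.00749) was lower than that of the first. Both probes of Ndufc2 were thus higher, at different sizes. The membrane-arm subunit Ndufb8 was less even, at 0.76, 1.32, 0.58 and 0.20 with a mean of 0.71 ± 0.18 (adjusted p = 0.0244).

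The other higher genes of complex I were Ndufb11 (0.70), Ndufb6 (0.48), Ndufs5 (0.44), Ndufs8 (0.36), Ndufb7 (0.35) and Ndufa8 (0.28), as mean log2 ratios. With the slide as a random block complex I kept 7 higher genes, and Ndufs8, Ndufb6, Ndufb7 and Ndufa8 missed the threshold with adjusted p of 0.0505, 0.0548, 0.0571 and 0.061. In the other complexes Sdhb (0.0553) and Atp5me (0.0636) lost their call under that block, which left 17 of 63 (27.0%). Of all named genes 20.8% were higher under the block, against 25.7% in the main setting. At the low end stood Ndufb3, a small membrane-arm subunit, with -0.16, 0.18, -1.54 and -0.50, which gave a mean of -0.50 ± 0.27 (adjusted p = 0.161). Its replicates straddled 0, replicate 3 lay far below the others, and the mean turned to 0.12 with median centring and 0.35 when outlier spots were kept. Ndufb2 (-0.30), Ndufb4 (-0.20), Ndufab1 (-0.09), Ndufa12 (-0.07), Ndufa11 (-0.05) and Ndufb5 (-0.01) were the other tested genes of complex I with means below 0. None was called, and all 6 lay above 0 with median centring and also when outlier spots were kept. Of these, Ndufb2 passed as lower without replicate 2, at -0.51 (adjusted p = 0.0454).

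By position in the complex, 2 of 9 genes of the NADH-oxidising N module and 2 of 5 of the ubiquinone-reducing Q module were higher. Of the 16 other subunits tested 7 were higher, and the medians were 0.31, 0.36 and 0.22. These 16 are mostly membrane-arm subunits but include Ndufa9, described below, which lies near the ubiquinone site. Among the 7 core subunits encoded in the nucleus 3 were higher with a median of 0.40, and among the 23 accessory subunits 8 with a median of 0.28. Differences between these groups were not tested.

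**Figure D1:**
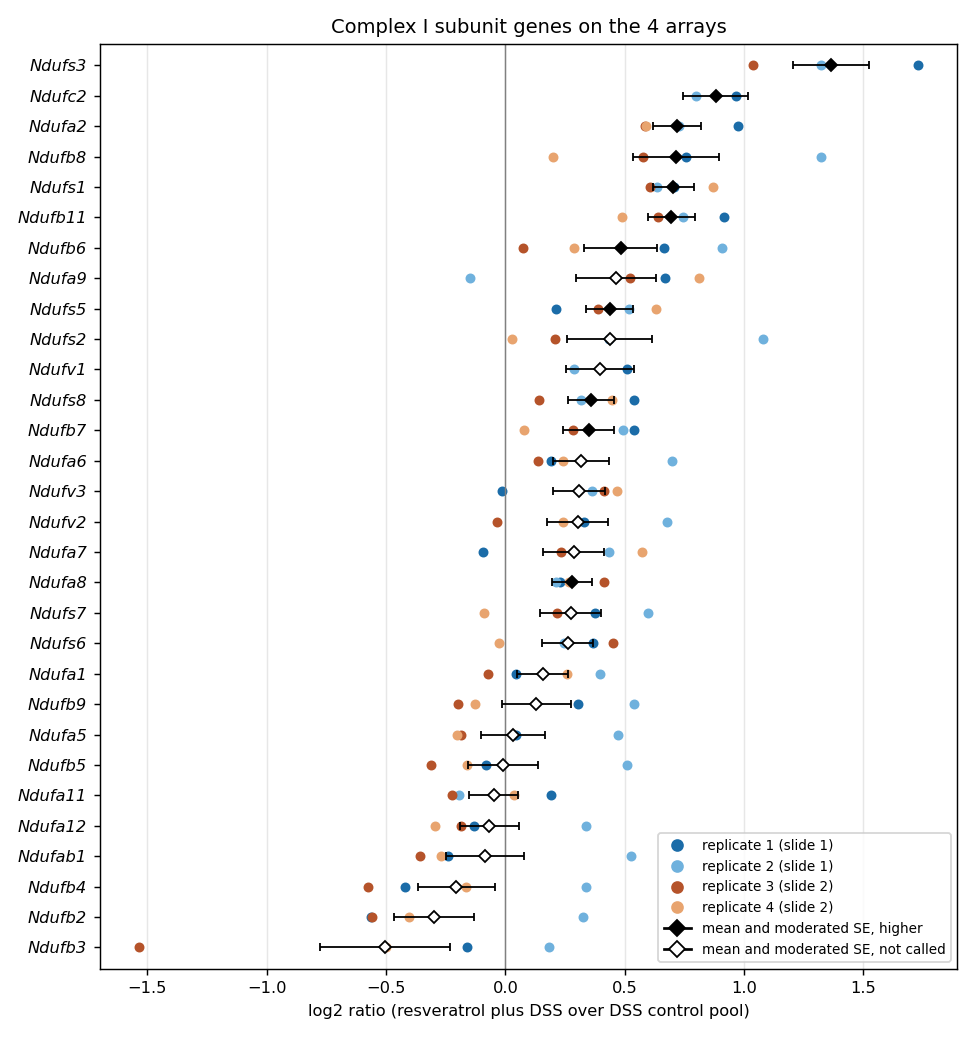
Log2 ratio (resveratrol plus DSS over control pool, horizontal axis) of the 30 complex I genes tested. Small points are the 4 arrays, coloured by replicate and slide, and diamonds with bars are the mean and moderated SE, filled for the 11 genes called higher; Ndufs3 stands at the top with a mean of 1.36 and Ndufb3 at the bottom with -0.50.

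Ndufa9 is a complex I subunit near the ubiquinone site whose 2 probes went apart. One probe was tested and not called, with 0.67, -0.15, 0.52 and 0.81 and a mean of 0.46 ± 0.17 (adjusted p = 0.0615). The other (rn3 chr4:163453428-163453487), downstream of the first on the - strand, had only 1 array free of outlier marks. With outlier spots kept the first probe was higher at 0.81 (adjusted p = 0.0141) and the second lower at -0.78 (adjusted p = 0.00585), with all 4 of its arrays below 0, from -1.38 to -0.53. No direction is therefore given for Ndufa9. For the 6 genes with several tested probes, 0 had probes called in opposite directions and none differed by more than 0.5 with a call, as the 2 tested probes of Ndufs8 (0.36 and 0.19), Uqcrb (0.47 and 0.34) and Cox5b (0.22 and 0.11) show.

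The 4 subunits of complex II, succinate dehydrogenase, also work in the citric acid cycle, and 3 of the 4 were higher, with a median of 0.48. Sdhd, a membrane anchor, had 0.67, 1.02, 0.69 and 0.72, and the mean was 0.78 ± 0.10 (adjusted p = 0.00496), a 1.71-fold ratio. Sdhc, the other anchor, had 0.56, 0.91, 0.75 and 0.43, with a mean of 0.66 ± 0.11 (adjusted p = 0.00779). Every array of both anchor genes lay above 0.4. Sdhb, the iron-sulphur subunit, was smaller and even at 0.28, 0.43, 0.24 and 0.23 (mean 0.29 ± 0.08, adjusted p = 0.0325). Sdha, the flavoprotein that oxidises succinate, had a like mean with a wider spread, 0.33, 0.68, -0.04 and 0.20, and was not called (0.29 ± 0.13, adjusted p = 0.104). Replicate 2 was the highest array for all 4 genes.

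In complex III, the cytochrome bc1 complex, 2 of 6 genes were higher with a median of 0.34. Cyc1, which encodes cytochrome c1, had 1.08, 0.87, 0.21 and 0.34, and the mean of 0.63 ± 0.16 (adjusted p = 0.0267) joined high values on slide 1 with low ones on slide 2. Uqcrc2, a core protein on the matrix side, had 0.64, 0.77, 0.15 and 0.63 (mean 0.55 ± 0.12, adjusted p = 0.0177). Its partner Uqcrc1 was not called at 0.08 ± 0.15 (adjusted p = 0.673). Uqcrfs1, the Rieske iron-sulphur protein, stood at 0.20 and was not called. Uqcrb was not called by its brighter probe at 0.47 (adjusted p = 0.0713) and passed by its second at 0.34 (adjusted p = 0.0386). The lowest gene was Uqcrh, the hinge protein, with -0.02, 0.35, -0.06 and -0.13 and a mean of 0.04 ± 0.11 (adjusted p = 0.787).

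Complex IV had the lowest median of the 5 complexes, with 1 of 12 genes higher, 11 not called and a value of 0.12. Cox6c-ps1 and Cox8b are doubtful as transcripts of the complex. The former is listed as a pseudogene, and the probes of the latter disagree on strand, as described below; without both the median over 10 genes was 0.22, with 1 higher. Several subunits of this complex come in pairs of isoforms, a widely expressed form and a form of heart and skeletal muscle. Forms of either kind were counted in these medians. Cox6a1, the widely expressed form, was the gene called higher, with 0.70, 1.29, 0.32 and 0.56 (mean 0.72 ± 0.16, adjusted p = 0.0188). The muscle form Cox6a2 had values on slide 1 only, 0.13 and -0.11, with a mean of 0.01 (adjusted p = 0.962). The widely expressed Cox8a had 0.46, 1.16, -0.01 and 0.37 and missed the threshold at 0.49 ± 0.19 (adjusted p = 0.0688).

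Cox4i2, a form of subunit 4 known from lung and from low oxygen, had the lowest mean of all members at -1.31 ± 0.50 (adjusted p = 0.0797). Its values were -0.62 on replicate 1, -0.44 on replicate 2 and -2.87 on replicate 3, all below 0 and far apart, with an outlier mark on replicate 4. Without replicate 3, on the 2 arrays left, it passed as lower at -0.53 (adjusted p = 0.0247), and in the authors' deposited table of ratios, tested the same way, it passed at -1.09 (adjusted p = 0.0192). With outlier spots kept its arrays stood at -0.35, -0.29, -0.33 and -0.07, and the mean was -0.26 (adjusted p = 0.0546). The spot of replicate 3 carries no outlier mark, so its move from -2.87 to -0.33 is one of the curve and not of the spot. For the main form Cox4i1, 3 of 4 arrays were marked as outliers, so it was not tested. With those spots kept it had 1.18, 0.85, 1.73 and 0.93, all above 0 (mean 1.17, adjusted p = 0.00157). The main median of complex IV thus counts Cox4i2 and the muscle form Cox6a2 but not Cox4i1. The part of the isoforms counted in that low median was not tested. The other genes of complex IV, Cox6c, Cox7b, Cox7a2l, Cox5b, Cox7a2 and Cox5a, had means between -0.11 and 0.39 and none was called, and that of Cox5a, the lowest, turned to 0.50 by median centring and 0.60 when outlier spots were kept.

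Cox8b, the muscle form of subunit 8 and Cox8h on the array, had 3 probes. The tested ones lie on the + strand of rn3 chromosome 1 and overlap each other, and the brighter gave -0.39 and -0.29 on slide 1 with a mean of -0.34 (adjusted p = 0.101). The remaining probe, matched to a RefSeq accession of the gene, lies on the - strand and did not rise well above background anywhere. A run of 21 bases in it is the reverse complement of a run in a tested probe, and both are shown because they place the probes on opposite strands.
Cox8b, remaining probe: ccagcaggatgggtcttatcc
Cox8b, tested probe: ggataagacccatcctgctgg
The value under the name Cox8b therefore cannot be assigned to the Cox8b transcript.

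Complex V had 6 of 11 genes higher, 0 lower and a median of 0.43. Atp5f1a, the alpha subunit of the catalytic F1 head, had 1.21 on replicate 1, 0.99 on replicate 2 and 1.10 on replicate 4. The arrays differed little, and the mean of 1.10 ± 0.10 (n = 3, adjusted p = 0.00475), a 2.14-fold ratio, was second among all members. Atp5f1d, the delta subunit of the central stalk, had 0.95, 0.95, 0.47 and 0.14 (mean 0.63 ± 0.16, adjusted p = 0.0244). Atp5f1c, the gamma subunit that turns inside the head, was even at 0.42, 0.36, 0.47 and 0.42 (mean 0.42 ± 0.08, adjusted p = 0.0107). Atp5f1b, the catalytic beta subunit, was not tested because 3 of its 4 spots were marked as outliers. With these kept its values were 0.90, 0.97, 1.91 and 1.30, again all above 0.

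The membrane ring of subunit c is encoded by several genes whose mature proteins are alike. Atp5mc1 had 1.10, 0.96, 0.40 and 0.60 (mean 0.77 ± 0.14, adjusted p = 0.00992). Atp5mc2 had 1.20 and 1.16 on slide 1 but 0.23 and 0.18 on slide 2 (mean 0.69 ± 0.21, adjusted p = 0.0401), so that the slides did not overlap in this setting. A second probe of Atp5mc2 was not tested, with only replicate 2 free of outlier marks, at 0.18. With outlier spots kept the second probe had 0.42, 0.32, 0.62 and 0.05 and the first 1.47, 1.30, 2.24 and 0.91. The size given for Atp5mc2 thus rests on 1 of 2 probes that differ. Atp5mc3 was measured on replicates 2 to 4 at 0.12, -0.05 and 0.09 and was not called (0.05 ± 0.10, adjusted p = 0.68). Atp5me, the small subunit e, had 0.43, 1.03, 0.20 and 0.26 (mean 0.48 ± 0.15, adjusted p = 0.0445). None of the 3 genes tested of the peripheral stalk was called, Atp5pb at 0.43, Atp5pf at 0.10 and Atp5pd, the lowest of the complex, at -0.20 (adjusted p = 0.319). The values of Atp5pd were -0.42, 0.33, -0.56 and -0.13, with replicate 2 alone above 0, and the mean turned to 0.42 with median centring and 0.48 when outlier spots were kept.

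**Figure D2:**
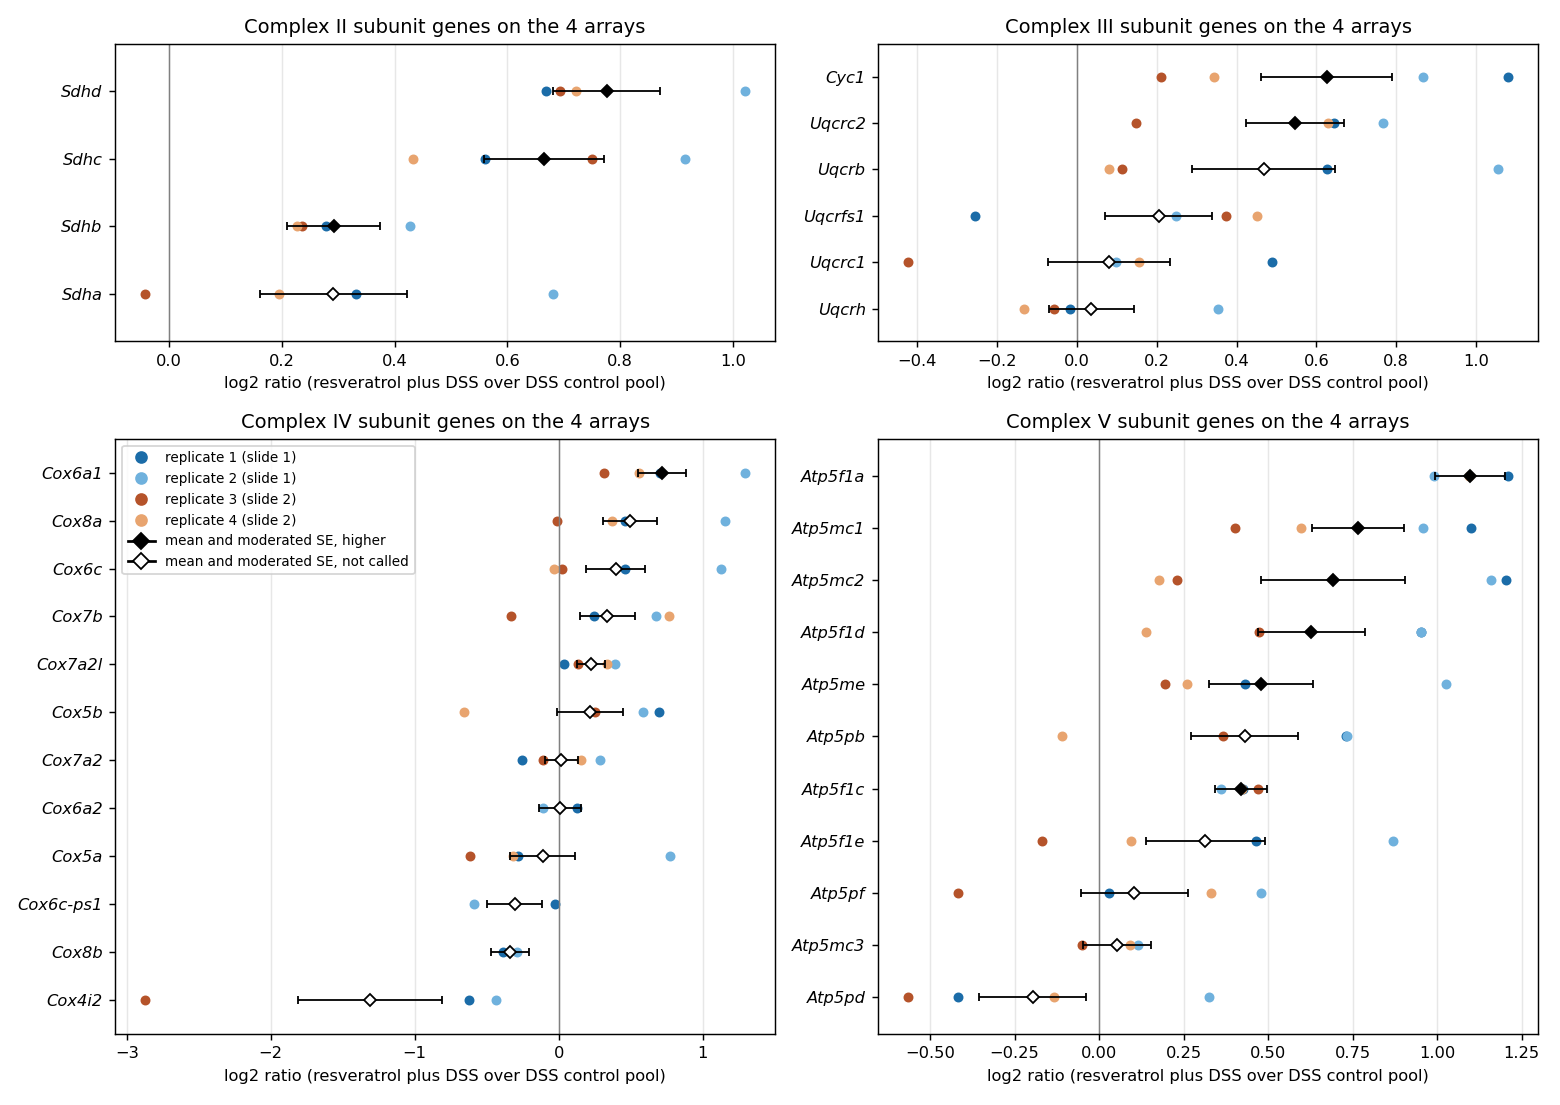
Log2 ratio (resveratrol plus DSS over control pool, horizontal axes with their own ranges) of the tested genes of complexes II, III, IV and V. Small points are arrays and diamonds with bars the mean and moderated SE, filled where called higher; 3 of 4, 2 of 6, 1 of 12 and 6 of 11 genes were called.

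By array, the medians of complex V were 0.60, 0.87, 0.21 and 0.18 and those of complex II 0.45, 0.80, 0.46 and 0.33. Complex I had 0.32, 0.50, 0.17 and 0.20, complex III 0.56, 0.56, 0.13 and 0.25, and complex IV 0.08, 0.49, -0.01 and 0.25. Complex II was above all named genes by more than 0.2 on every array, while complex IV lay at their level on replicates 1 and 3. No test of the difference between complexes was made.

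**Figure D3:**
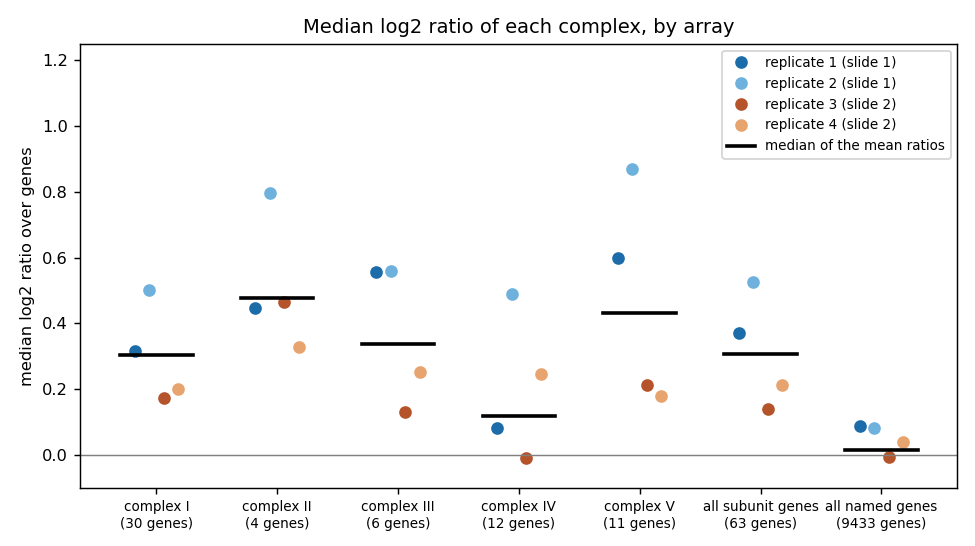
Median log2 ratio over the genes of each complex (vertical axis) on each of the 4 arrays, with the median of the mean ratios as a bar and the number of genes under each name. The subunit genes together lie at 0.14 to 0.53 and all 9433 named genes at -0.01 to 0.09.

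The size of the shift depended on how arrays were centred. When each array was centred on its median in place of loess, 55 of the 63 subunit genes were higher and 1 lower, with a median of 0.82, and the median of all named genes moved from 0.02 to 0.25, with 38.4% of them higher. With outlier spots kept 55 of 67 were higher and 2 lower, with a median of 0.77 and 35.6% of named genes higher. Most members are bright, and 43 of the 70 member probes tested were among the brightest 20% of tested probes. Relative to the median of those bright probes, the median of the member probes was higher by 0.37 in the main setting, 0.33 by median centring and 0.41 when outlier spots were kept. By count, 61 of the 70 member probes were higher by median centring and 58 when outlier spots were kept, and of the bright probes 49.7% and 49.0%. In the main setting 14 of the 43 bright member probes were higher, against 22.3% of all bright probes, and 12 of the 27 dimmer member probes. The medians compared are over all 70 member probes and are not matched for brightness. The scanner's processed signals gave a difference of 0.45 and signals without background subtraction 0.38. The members were thus above the bright probes in each of these 5 settings, and on the single arrays by 0.33, 0.40, 0.25 and 0.16 in the main setting. The differences by array were uneven in others, at 0.19, 0.38, 0.02 and 0.07 by median centring and 0.29, 0.39, 0.62 and 0.42 when outlier spots were kept.

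**Figure D4:**
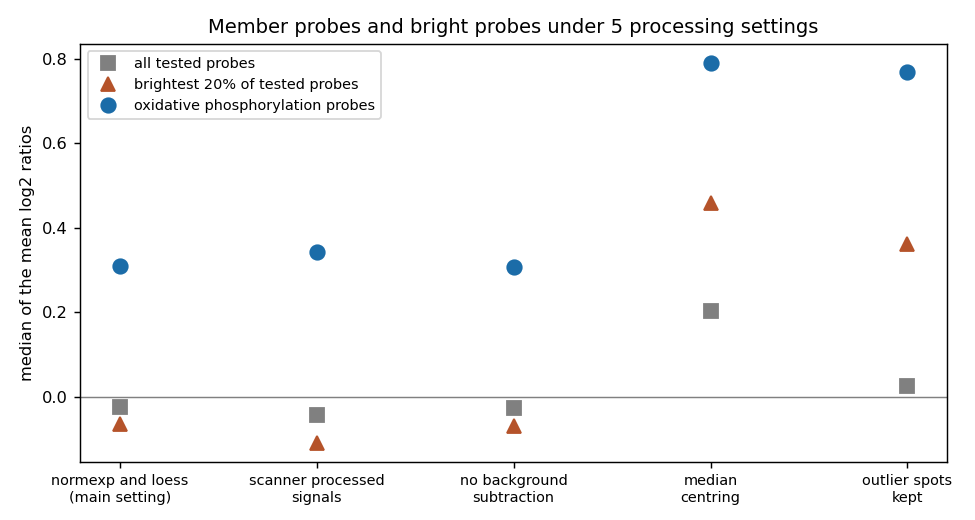
Median of the mean log2 ratios (vertical axis) of all tested probes, of the brightest 20% and of the 70 member probes under 5 processing settings. The member probes lie above the bright probes by 0.33 to 0.45 in each setting, while both move up with median centring or when outlier spots are kept.

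Fewer genes passed when the error was widened or arrays were left out. With every standard error widened by the square root of 2, as if the pool varied as much as the arrays' mean, 7 of 63 were higher, against 8.15% of all named genes. Without replicate 1 10 of 60 were higher (16.7%), against 12.4%, and without replicate 2 also 10 of 60 with 1 lower, against 12.9%. Under the wider error and on slide 2 the share of subunit genes called was thus near the background. The genes Sdhd, Atp5f1a, Ndufs1 and Ndufs3 were called higher in every alternative that gave them a value, 16 to 18 each. Atp5f1a and Ndufs3 had too few values to be tested on slide 2 alone. Ndufs1 and Ndufs3 had no value where the probes with shared short sequences, described below, were left out. Sdhd and Ndufs1 were the 2 genes called on slide 2 alone. Ndufa2, Ndufb11 and Sdhc lost the call in no alternative but that one, with adjusted p of 0.0568, 0.0624 and 0.0655.

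Some member probes share short stretches of sequence with probes that had the highest ratios on these arrays. Among the 200 highest probes outside the members 15 hexamers were in at least 20 and in at least 3 times the share of all tested probes, such as ACCTCA, held by 30% of them and by 2.68% of all tested probes. One or more occurred in 14 of the 70 member probes tested (20%), close to the 18.8% of all tested probes, and in 4 of the 26 higher ones. They were the probes of Ndufs3, Ndufc2, Ndufb8 and Ndufs1, which ranked 1, 2, 4 and 5 in complex I by mean ratio, and 30 bases of each probe are shown with the hexamer bases in capitals, with the rn3 position of the whole 60-base probe from the array's annotation.
Ndufs3 (chr3:75155161-75155220, - strand): acatgtttggagttttcttctTCAACCACC
Ndufc2 (chr1:154720415-154720474, + strand): CCTCACCAcaacctgaatattttctgaatt
Ndufb8 (chr1:249857525-249857584, - strand): tgggactccttgttcctagaggttTCACCT
Ndufs1 (chr9:61958828-61958887, - strand): taataggcagtccagtagACCTCACttaca
The probe of Ndufs3 holds 4 overlapping hexamers, that of Ndufc2 3, that of Ndufs1 2 and that of Ndufb8 1. The second probe of Ndufc2, without a hexamer, was also called higher, at 0.49. With all hexamer probes left out, 21 of 52 subunit genes were higher and 0 lower, with a median of 0.30 and 25.1% of named genes higher. Hexamers were also present in probes with low ratios, Cox4i2 and Ndufb3 among them. The part of these sequences in the ratios was not tested.

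The other genes of the pathway were read from lists by role. Of 22 assembly factors tested, which build the complexes without being part of them, 6 were higher and 2 lower, with a median of 0.18. That share is near the 25.7% of all named genes, and with both channels above background on all arrays 2 were higher and the median was -0.02. Ndufaf3, a complex I assembly factor, was at 0.55 (adjusted p = 0.00767) and Lrpprc, which stabilises mitochondrial messenger RNA, also at 0.55 (adjusted p = 0.013). Ecsit was lower at -0.54 on slide 1 (n = 2, adjusted p = 0.0366) and Ndufaf4 at -0.28 (adjusted p = 0.0317). Of 12 genes for electron carriers and ubiquinone synthesis, among them cytochrome c and the electron transfer flavoprotein, 3 were higher and 1 lower, with a median of -0.03. Of all named genes 25.7% were higher and 19.6% lower. Cycs, cytochrome c itself, had 0.85, 0.78, -0.11 and 0.53 (mean 0.51 ± 0.17, adjusted p = 0.0498). The ubiquinone synthesis genes Coq7 and Coq8b stood at 0.44 (adjusted p = 0.0163) and -0.26 (adjusted p = 0.0497).

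Of 11 genes of nucleotide and phosphate transport and the inhibitor of ATP synthase, 5 were higher and 1 lower, with a median of 0.17. All named genes gave 25.7% higher and 19.6% lower. Slc25a6, an exchanger of ADP for ATP, was even over arrays at 0.77, 0.84, 0.60 and 0.61 (mean 0.70 ± 0.09, adjusted p = 0.00497). Its homologue Slc25a4, the main form of heart and muscle, was lower at -0.50 on the slide 1 arrays (n = 2, adjusted p = 0.0413). Ckmt1, a mitochondrial creatine kinase, was at 0.63 (adjusted p = 0.032). Both uncoupling proteins tested passed, in opposite directions. Ucp2, the widely expressed one, had 1.16, 0.88, 0.76 and 1.39 (mean 1.05 ± 0.12, adjusted p = 0.00492). Ucp1, the one of brown fat, was at -0.67 ± 0.08 (adjusted p = 0.00506), and all 4 of its arrays lay between -0.78 and -0.56.

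Genes that copy and transcribe mitochondrial DNA gave 2 higher of 11, against 25.7% of all named genes, with a median of 0.19. The 2 higher genes were Polg, the mitochondrial DNA polymerase, at 0.42 (adjusted p = 0.0216) and Twnk, the helicase, at 0.35 (adjusted p = 0.0463). Of 8 regulators of the nuclear genes 3 were higher and 0 lower, against 25.7% and 19.6% of all named genes. The regulators had a median of 0.18. Ppard, a nuclear receptor active on fatty acid oxidation genes, was at 0.61 (adjusted p = 0.00898), and the coactivator Ppargc1b at 0.49 (adjusted p = 0.0084). Gabpa, which encodes the DNA-binding part of GABP, was at 0.36 (adjusted p = 0.0279).

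The list counts rest on few genes and moved when an array was left out. Without replicate 1 the higher genes numbered 2 of the assembly factors, 0 of the electron carriers, 1 of the transporters, 0 of the mitochondrial DNA genes and 2 of the regulators. Without replicate 2 they numbered 1, 0, 1, 0 and 2. The share of all named genes called higher fell as well, from 25.7% to 12.4% without replicate 1 and 12.9% without replicate 2. The mitochondrial DNA genes, below the background share in the main setting, had a median of 0.41 with the scanner's processed signals.

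Markers of cell types moved on the same arrays, on which 25.7% of all named genes were higher and 19.6% lower. Of 11 colonic epithelium markers 7 were higher and 0 lower, with a median of 0.80 and array medians of 0.90, 0.90, 0.33 and 0.74. Replicate 3 had the lowest median for the epithelial markers and for the subunit genes, and also, at -0.01, for all named genes. All 11 markers passed the filter and were tested, and Krt18 had the highest mean at 1.38 (adjusted p = 0.0139). Of 8 fibroblast and matrix markers 7 were lower, with array medians between -1.68 and -1.05, and of 8 leukocyte markers 5 were lower, with array medians between -0.73 and -0.15. Of 5 smooth muscle markers 1 was lower, and their array medians were -0.36 and -0.38 on slide 1 against -1.62 and -3.19 on slide 2. Striated muscle markers gave 1 higher of 2, erythrocyte markers 2 lower of 2 and pancreas markers 2 lower of 3. The part of the cell types in the ratios of the subunit genes was not tested.

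**Figure D5:**
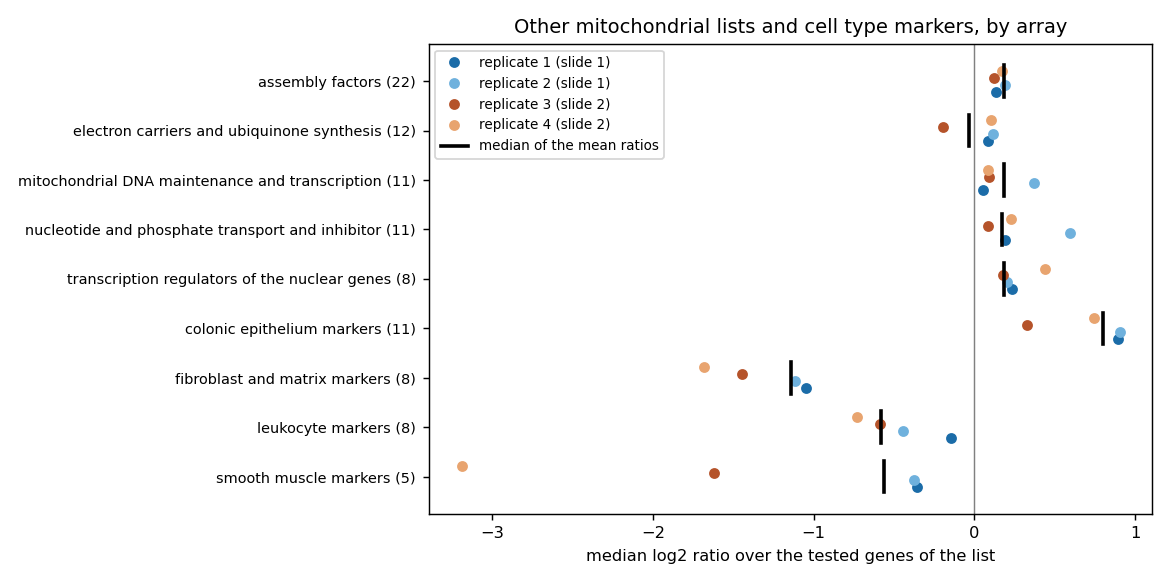
Median log2 ratio (horizontal axis) over the tested genes of 5 other lists of the pathway and of 4 lists of cell type markers, on each of the 4 arrays, with the median of the mean ratios as a bar and the number of genes in brackets. Epithelial markers lie at 0.33 to 0.90, fibroblast and matrix markers below -1 and the lists of the pathway at -0.19 to 0.60.

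Of the 82 member probes 12 were not tested, 6 because they were not well above background and 6 because under 2 arrays were free of outlier marks. The genes left without a value were Ndufs4 and Cox6b2, which were dim, and Cox4i1, Cox6b1, Atp5f1b and Atp5po, whose bright spots were marked. Of the marked genes, Atp5po was higher at 0.67 (adjusted p = 0.0276) and Cox6b1 lower at -0.72 (adjusted p = 0.00349) with the spots kept, Cox6b1 below 0 on all 4 arrays. In that setting the member probes had a median of 0.77. Of the 3 names that are not subunits, Emc8 was not called at 0.31 (adjusted p = 0.171), and Ndufaf1 and Dmac2l were dim. Of the 70 probes tested 69 were well above background in both channels on all arrays, and none was saturated. Outlier marks were more common on slide 2, at 14.6% and 15.9% of member spots there against 6.10% and 2.44% on slide 1, and at 11.0% and 13.7% of all spots against 3.45% and 4.68%. Over all spots, 42.8% to 57.1% were well above background in either channel, and precision is limited by having 4 arrays.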

How the data were processed

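RNA of colon mucosa was measured on 4 two-colour Agilent arrays. Per the file headers, the deposited scanner files give spot intensity values, spot flags and rn3 probe positions, made with version 9.5.3.1 of Agilent Feature Extraction. The deposited log10 ratio, equal to that of the processed signals for 72.6% of spots (tolerance 0.001), entered no fit. It was only compared, on the log2 scale, with the authors' value table. The authors' value table holds log2 ratios for 24197 probes. It followed the scanner's ratios with r of 0.98 to 0.99 and slopes of 0.97 to 1.00, which gave its scale and direction. Its column medians were -0.01, -0.01, 0.09 and -0.02, while its centring stays unknown. Agilent Feature Extraction and limma are the tools in the submitters' processing notes. Replicates 1 to 4 are named by accession order. Each holds other rats, per the labels. The makeup of the control pool, and whether all arrays share it, the sources used here do not give.

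Background was corrected by normexp (offset 50) and ratios were normalized by loess within arrays with limma 3.58.1 (R 4.3.3). The 1639 control spots among 45018 and those marked as outliers by the scanner software were left out, and spots of a probe were averaged. Probes were tested if either channel rose well above background on 3 or more arrays and 2 or more values remained, which left 18869. Mean log2 ratios were tested against 0 (lmFit, eBayes), two-sided, with Benjamini-Hochberg adjustment at 0.05. Errors after ± are moderated standard errors, which lean on other probes most where 2 arrays were measured. A gene is its brightest tested probe. Current symbols came from RefSeq names of assembly GRCr8, by accession for 44 of the 72 member genes and otherwise by symbol or synonym. The fit was tested on simulated ratios with known changes and independent noise for each probe and array. These held no pool, slide or dye effect, so the test cannot speak to such effects.

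Members, lists and alternatives were chosen with earlier results of these data known. Values are given per array for the up to 5 highest called genes and the lowest gene of each complex, for isoform pairs and for probes that disagree. Ndufa9, Cox4i1, Atp5f1b and others outside this rule were chosen after their values were seen. Alternatives were the scanner's processed signals, no background subtraction, median centring, other filters, outlier spots kept, the authors' table, each array left out, the slide as a block or alone, a wider standard error, an intensity trend, hexamer probes left out and all probes of a gene averaged. Leaving out Cox8b and Cox6c-ps1 and the comparisons with the brightest probes and of array medians between settings were added after seeing the data.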

Additional observations from a re-analysis of the deposited data

Results flagged for a closer look

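Single arrays were compared for the 55 member genes measured on all 4 arrays and for 6 medians over genes, together 61 sets of values. In 2 of them an array stood apart from the other arrays by Dixon's criterion, and chance alone marks about 1 in 20 such groups. Ndufab1, the mitochondrial acyl carrier protein bound to complex I, was at 0.53 on replicate 2 and between -0.36 and -0.24 on the other arrays. It was not called in the test of its mean. Sdhd, a membrane anchor of complex II, was at 1.02 on replicate 2 and between 0.67 and 0.72 on the others, so all 4 arrays were above 0. In both genes the array apart was replicate 2, which was also the highest array for most subunit genes.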

How the results depend on the processing

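No paired analysis was possible because all 4 arrays belong to 1 group and are tested against 0. Counts below are of subunit genes. The 23 higher genes of the main setting became 55 under median centring, 55 with outlier spots kept, 37 on slide 1 alone, 2 on slide 2 alone and 7 with the wider standard error, and leaving out each replicate gave 10 to 28. Lower genes numbered 0, but 1 under median centring, 2 with outlier spots kept, 1 in the authors' table, 2 on slide 1 alone and 0 to 1 with a replicate left out. They were Cox4i2 (median centring, the authors' table, without replicate 3, slide 1), Cox6b1 and Ndufa9 (outlier spots kept), Ndufb2 (without replicate 2) and Cox8b (slide 1). The median of 0.31 rose to 0.82 by median centring and 0.77 with outlier spots kept. The medians under these settings were 0.81 and 0.73 for complex I, 0.85 and 0.83 for complex II, 0.92 and 0.92 for complex III, 0.56 and 0.56 for complex IV and 0.96 and 1.16 for complex V. The sign turned with median centring for Ndufa12 (0.50), Ndufa11 (0.36), Ndufab1 (0.38), Ndufb2 (0.21), Ndufb3 (0.12), Ndufb4 (0.40), Ndufb5 (0.55), Cox5a (0.50), Cox6c-ps1 (0.040), Cox8b (0.11) and Atp5pd (0.42). It turned when outlier spots were kept for Ndufa12 (0.49), Ndufa11 (0.23), Ndufab1 (0.27), Ndufb2 (0.13), Ndufb3 (0.35), Ndufb4 (0.44), Ndufb5 (0.53), Cox5a (0.60), Cox6a2 (-0.18), Atp5pd (0.48) and Ndufa9 (-0.78, where the second and brighter probe can then be tested). Uncalled genes near 0 also turned with the scanner's processed signals (Cox7a2 -0.069, Cox6a2 -0.096, Uqcrc1 -0.092), in the authors' table (Uqcrh -0.014, Ndufa5 -0.0069, Cox7a2 -0.032, Cox6a2 -0.062), on slide 1 alone (Ndufa12 0.10, Uqcrfs1 -0.0025, Ndufb5 0.21, Ndufab1 0.14, Cox5a 0.25, Ndufb3 0.012) and on slide 2 alone (Cox5b -0.21, Uqcrh -0.095, Ndufa5 -0.19, Cox6c -0.0036, Atp5pf -0.044, Atp5f1e -0.037, Ndufb9 -0.16, Emc8 -0.0053, Uqcrc1 -0.13). With a replicate left out, the range spanned 0 for Ndufa12 (-0.20 to 0.0076), Uqcrh (-0.069 to 0.093), Ndufa11 (-0.13 to 0.011), Ndufa5 (-0.11 to 0.11), Cox7a2 (-0.070 to 0.11), Ndufb5 (-0.18 to 0.089), Ndufab1 (-0.29 to 0.0053), Cox5a (-0.40 to 0.058), Atp5pf (-0.020 to 0.28), Ndufb9 (-0.0074 to 0.24) and Uqcrc1 (-0.056 to 0.25). The cause was not tested. In the other settings 17 to 24 genes were higher. The lack of a dye swap, the single control pool and 4 arrays limit all values.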

Other observations

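Some subunits and assembly factors stand on this array under names that do not begin with a member prefix, and were found through their current RefSeq symbols. They were 13 genes, of which 8 could be tested, with 3 higher, 1 lower and a median of 0.20. Among all named genes 25.7% were higher and 19.6% lower. Atp5mg, subunit g of ATP synthase (MGC72942 on the array), had 0.43, 0.76, 0.60 and 0.56 and a mean of 0.59 ± 0.09 (limma, adjusted p = 0.00705). Atp5mk, a small ATP synthase subunit (Usmg5 on the array), was at 0.29 ± 0.09 (adjusted p = 0.0466), with all arrays between 0.12 and 0.42. The assembly factors Ndufaf3 and Ndufaf4, on opposite sides of 0, are the other genes called. The lowest was Atp5hl1, listed as a gene like subunit d of ATP synthase, with -0.59, -0.15 and -2.71 on replicates 1 to 3 and a mean of -1.15 ± 0.50 (adjusted p = 0.11). Like Cox4i2 and Ndufb3, it had its lowest value by far on replicate 3, the array whose member spots moved most when outlier spots were kept.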
